A study of Mus musculus with 8 samples.

Results

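The 10 genes described here encode AP-1 subunits and other early response factors: the FOS genes Fos, Fosb, Fosl1 and Fosl2, the JUN genes Jun, Junb and Jund, the related factor Atf3, the zinc finger factor Egr1, and Ier3, an early response gene linked to cell survival. They were chosen by name from a table of RNA read counts with 53170 named genes, each has a single row there, and all 10 were counted often enough to be tested among 14058 genes. The RNA came from organoids, cultures that grow as small epithelial bodies, made from glandular stomach (hindstomach) epithelium taken from mice at embryonic day 18.5 and held in growth medium for 5 days. All 8 libraries carry Shh-Cre, a recombinase driven in cells that express Sonic hedgehog. The 4 control libraries have the genotype Shh-Cre alone, and the 4 YAP5SA libraries have the genotype Shh-Cre;YAP5SA, which adds a form of the coactivator YAP that the Hippo kinases restrain poorly. The labels do not say whether libraries of a group came from separate embryos, so p-values here rest on a spread among libraries that could be technical only.

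AP-1 is a dimer of basic leucine zipper (bZIP) proteins that binds short DNA elements. JUN proteins can pair with each other or with FOS proteins, while FOS proteins need a JUN partner, and ATF3 can join JUN proteins as well. Genes such as Fos and Egr1 are switched on within minutes by growth factors, stretch or stress through kinases and the serum response factor SRF, and their RNAs are short-lived. In many epithelial cells AP-1 sits at the same enhancers as the TEAD factors through which YAP acts.

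The annotated start regions of 3 genes are shown because Jun and Atf3 were the most strongly lowered of the well-counted genes and Fos went the other way. Each runs from 250 bases before to 50 bases after the start of transcription in RefSeq on build GRCm38.p6, namely Jun at chr4:95052173-95052472 (minus strand), Atf3 at chr1:191183284-191183583 (minus strand) and Fos at chr12:85473640-85473939 (plus strand). Capitals mark the Jun type AP-1 site in Jun, the CRE core in Atf3 and Fos, and the TATA box in Fos.
Jun: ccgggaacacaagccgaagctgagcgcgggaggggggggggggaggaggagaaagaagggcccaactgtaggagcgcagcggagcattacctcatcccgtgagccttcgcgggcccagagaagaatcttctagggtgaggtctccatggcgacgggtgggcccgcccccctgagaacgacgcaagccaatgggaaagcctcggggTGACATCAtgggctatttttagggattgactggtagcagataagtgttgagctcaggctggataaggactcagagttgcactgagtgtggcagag
Atf3: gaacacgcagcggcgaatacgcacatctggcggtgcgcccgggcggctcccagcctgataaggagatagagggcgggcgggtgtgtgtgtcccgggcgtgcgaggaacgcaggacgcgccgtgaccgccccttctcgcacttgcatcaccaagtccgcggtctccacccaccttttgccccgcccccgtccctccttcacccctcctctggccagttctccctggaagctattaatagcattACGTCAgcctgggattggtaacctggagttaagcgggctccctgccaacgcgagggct
Fos: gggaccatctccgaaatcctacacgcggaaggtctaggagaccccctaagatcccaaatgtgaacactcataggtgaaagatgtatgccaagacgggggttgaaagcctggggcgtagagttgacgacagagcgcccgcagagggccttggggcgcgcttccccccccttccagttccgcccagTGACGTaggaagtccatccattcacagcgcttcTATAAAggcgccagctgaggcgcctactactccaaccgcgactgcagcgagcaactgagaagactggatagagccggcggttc

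The Jun window holds TGACATCA, the element through which AP-1 is known to act on Jun itself, from position -45 to -38 relative to the start. This motif occurs in 3.62% of the 32851 promoter windows in the table. Fos and Atf3 share TGACGT, the core of the cyclic AMP response element (CRE), at -66 to -61 in Fos and, on the opposite strand, at -8 to -3 in Atf3. It occurs in 7.51% of all windows, and its letters were added to the search after the windows had been seen. Fos also has TATAAA, the TATA box, at -33 to -28, which 13.6% of the windows contain. Windows of 8 of the 10 genes were found in the table and were searched on both strands. None of the 8 held the full CRE, TGACGTCA (1.79% of all windows), the element TGACTCA that AP-1 binds (5.2%), the TEAD site CATTCC (14.7%) or the CArG box bound by SRF (1.63%). Sites more than 250 bases before the start were not searched, so these genes, Fos among them, may hold such motifs further out. Egr1 and Fosl1 had no window. The GC box GGGCGG stood in 6 of the 8 (35.7% of all windows), with 5 copies in Atf3, some of them close together, 3 in Fosb, and 1 each in Jun, Fosl2, Fos and Ier3. Junb had TATAAA at positions 1 to 6, and Jund had none of these motifs.

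The comparison asked how the RNA of these factors differed between YAP5SA and control organoids. Levels below are CPM, that is, counts brought to the same library size by the scaling. Jun and Atf3 fell 2.45-fold and 3.68-fold in YAP5SA, Fosl1 fell from a control level of 1.01 CPM, and Fosl2, Ier3 and Junb fell by smaller amounts. Fos and Egr1 went the other way and rose 1.25-fold and 1.27-fold. Fosb and Jund did not pass the test. In all, 2 of the 10 genes rose and 6 fell at an adjusted p under 0.05, by the quasi-likelihood test of edgeR, with p-values adjusted over 14058 genes,, where 23.6% of all tested genes rose, 25.5% fell and 49.1% changed in either direction. Fosl1, 1 of the 6, passed the filter on low counts through its control libraries alone. The median log2 fold change of the 10 genes was −0.35, and that of all tested genes was 0.00. Their median size of change, regardless of sign, was 0.35 on the log2 scale beside 0.26 for all tested genes.

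**Figure D1:**
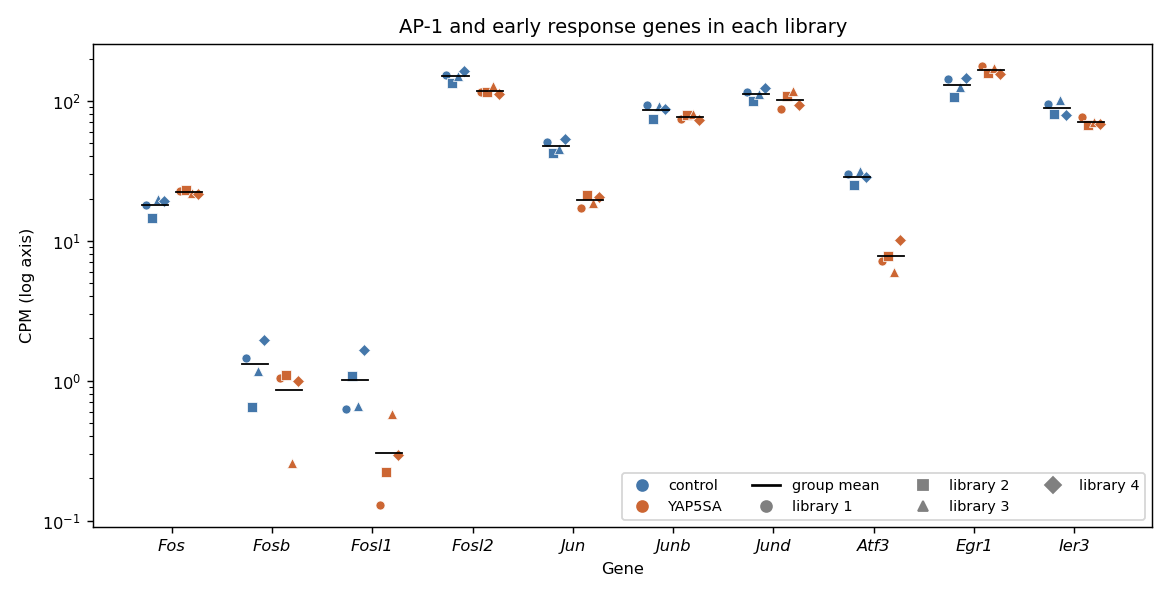
Level of each gene in each library, in CPM on a log axis, with control in blue, YAP5SA in orange, marker shapes for library numbers and black lines for group means. The groups are clearly apart for Jun (42.2 to 52.9 against 17.1 to 21.4 CPM) and Atf3 (24.9 to 31.4 against 5.99 to 10.1 CPM), and close together for Junb and Jund.

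Total counts per library ran from 13672268 to 19710648, and the 10 genes together took between 8925 and 13307 counts of a library. Mitochondrial genes took 4.38% to 5.18% of the counts, with overlapping ranges in both groups. Of 5 general epithelial genes 1 rose, 3 fell and 1 did not pass, and the keratin gene Krt19 averaged 2543 ± 99 CPM in control and 2155 ± 83 in YAP5SA (SD, n = 4), whereas 8 of 9 genes that mark gastric epithelium fell, among them Cldn18 from 1353 ± 42 to 2.05 ± 1.31 CPM, and Sox2 rose from 30.6 ± 1.7 to 47.6 ± 4.3 CPM. Of all tested genes, 49.1% changed. The gastric list summed to between 2262 and 2446 CPM in control and between 71.7 and 76.3 CPM in YAP5SA. The marker lists of other cell types each summed to at most 39.1 CPM in a library. The 7 mesenchymal genes summed to 1.57 to 4.04 CPM in control and 0.50 to 1.35 in YAP5SA, with Lum at 0 in all 8 libraries and Col1a2 the most abundant. The 4 neural genes summed to at most 2.76 CPM, led by Tubb3 in control, with Sox10 at 0 in all libraries, and the 4 erythroid genes to at most 0.91 CPM, led by Hba-a1 in control and Alas2 in YAP5SA. The 4 endothelial genes summed to 6.5 to 13.7 CPM in control and 0.06 to 0.84 in YAP5SA, nearly all of it Tek, which fell. The 5 immune genes summed to 19.6 to 39.1 and 9.66 to 10.4 CPM, most of it Cd68, which fell, with Csf1r higher and Ptprc at 0.51 ± 0.18 CPM in control, and the 3 mesothelial genes summed to 6.38 to 9.98 and 22.1 to 31.9 CPM, most of it Upk3b, which rose as Lrrn4 did, with Wt1 at 0 counts in control and 3 in YAP5SA. Only its YAP5SA libraries carried Csf1r past the filter on low counts, so it had to differ once it was tested. Tek and the gastric genes Gata5, Gkn1 and Muc6 passed that filter through their control libraries, with at most 0.65 CPM in a YAP5SA library. The calls of these genes therefore give no support beyond the levels themselves. The part of these cell type markers in the changes of the 10 genes was not tested, and fewer cells of a type cannot be told apart from less RNA per cell. Mouse Yap1 had 160.0 ± 7.2 CPM in control and 153.3 ± 4.2 in YAP5SA, and whether the transgene is counted on it was not tested. Xist, the RNA of the inactive X chromosome, ranged from 675.6 to 1049 CPM in control and from 0.41 to 2.76 CPM in YAP5SA, and the Y-linked gene Ddx3y averaged 0.08 ± 0.16 and 73.2 ± 3.4 CPM. Sex and genotype therefore cannot be told apart in any difference given here. All 10 genes lie on autosomes.

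Among the FOS genes, Fos itself encodes the short-lived subunit that is the classic early response product. Its level was 18.1, 14.5, 19.8 and 19.2 CPM in control libraries 1 to 4 and 22.8, 23.2, 21.8 and 21.4 CPM in YAP5SA libraries 1 to 4. Every YAP5SA library was above every control library, and control 2 was the lowest of all. The rise was small (0.32 ± 0.10 SE on the log2 scale, edgeR adjusted p = 0.0117), and without control 2 it was 0.22 with an adjusted p of 0.0477 (edgeR).

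Fosl2 encodes FRA2, a FOS protein with no strong activation domain of its own. It had 153.5, 134.9, 149.5 and 163.2 CPM in the controls and 115.0, 115.6, 127.0 and 110.9 CPM in YAP5SA, with no overlap between the groups. It fell by 0.36 ± 0.06 SE on the log2 scale (edgeR adjusted p = 0.000113), to 0.78 of the control level.

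Fosl1, which encodes FRA1, a subunit often raised in invasive and wound-edge epithelium, had the fewest counts of the 10 genes, with 65 counts over all controls and 20 over all YAP5SA libraries. The controls had 10, 20, 13 and 22 counts (0.63, 1.08, 0.66 and 1.65 CPM) and the YAP5SA libraries 2, 4, 9 and 5 counts (0.13, 0.22, 0.58 and 0.29 CPM). No YAP5SA library reached the lowest control, although YAP5SA 3 came close to it. It fell by 1.67 ± 0.48 SE on the log2 scale (edgeR adjusted p = 0.00731). Only its control libraries carried it past the filter on low counts, so it had to differ once it was tested, and its p-value gives no support for a fall. With no such filter the adjusted p was 0.00424 (edgeR), but it comes from the same few counts and is no separate support. In the GENCODE M21 annotation an exon of Ccdc85b on the opposite strand overlaps Fosl1, and reads of the pair cannot be told apart without strand. Ccdc85b averaged 6.09 ± 0.30 CPM in control and 6.09 ± 1.57 CPM in YAP5SA.

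Fosb encodes a close relative of FOS. Its controls had 23, 12, 23 and 26 counts (1.45, 0.65, 1.17 and 1.95 CPM), and the YAP5SA libraries had 16, 20, 4 and 17 counts (1.04, 1.10, 0.26 and 1.001 CPM). The groups overlapped and YAP5SA 3 stood below the rest. The log2 fold change of −0.57 ± 0.41 SE did not pass the test (edgeR adjusted p = 0.263), and 2 standard errors either side run from −1.38 to 0.24, a range that holds both a fall of 2-fold and a small rise.

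Among the JUN genes, Jun encodes the strongest activator of the family and the usual partner of FOS. Control libraries 1 to 4 had 51.0, 42.2, 45.2 and 52.9 CPM, and YAP5SA libraries 1 to 4 had 17.1, 21.4, 18.7 and 20.5 CPM. Every control was far above every YAP5SA library. Jun fell by 1.29 ± 0.09 SE on the log2 scale (edgeR adjusted p = 1.43e-09), and falls of at least 2-fold that passed the test made up 8.59% of all tested genes. Leaving out any library gave between −1.35 and −1.24. Exons of Junos on the opposite strand overlap Jun. Junos had 2 to 15 counts in a library, and the effect of the overlap on the value of Jun was not tested.

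Junb, whose protein can hold JUN activity back, had 92.6, 74.4, 91.7 and 87.2 CPM in the controls and 73.9, 78.6, 79.8 and 72.4 CPM in YAP5SA. Control 2 lay inside the YAP5SA range and the other controls above it. It fell by 0.18 ± 0.07 SE on the log2 scale (edgeR adjusted p = 0.0369), a change that no longer passed without control 1 or 3 (edgeR adjusted p = 0.0958 and 0.091), without YAP5SA 1 or 4 (0.0779 and 0.0958), with library size as the only scaling (0.0713) or with the library number as a block (0.0567). Exons of Prdx2 on the other strand overlap Junb, and Prdx2 averaged 176.0 ± 7.3 CPM in control and 163.1 ± 4.4 in YAP5SA (edgeR adjusted p = 0.0766), so how far reads of Prdx2 enter the value of Junb was not tested.

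Jund, the JUN gene with the most constant expression in most tissues, had 115.9, 100.3, 111.2 and 122.9 CPM in the controls and 87.3, 108.0, 117.5 and 93.8 CPM in YAP5SA. The groups overlapped, and the YAP5SA libraries were spread more widely than the controls. Its log2 fold change of −0.15 ± 0.09 SE did not pass (edgeR adjusted p = 0.176; 2 standard errors either side, −0.32 to 0.03). Single libraries moved it either way. It was −0.23 without YAP5SA 3 (edgeR adjusted p = 0.0289), −0.08 without YAP5SA 1 (0.421) and −0.10 without control 4 (0.449). Exons of Gm11175 on the opposite strand, with 0 counts in all libraries, overlap Jund, and the effect on its value was not tested.

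Atf3 is a stress-induced bZIP factor that often represses its targets and can dimerize with JUN proteins. It had 29.8, 24.9, 31.4 and 28.4 CPM in the controls and 7.12, 7.79, 5.99 and 10.1 CPM in YAP5SA. All controls were far above all YAP5SA libraries, with YAP5SA 4 the highest and YAP5SA 3 the lowest of their group. Atf3 fell by 1.88 ± 0.13 SE on the log2 scale (edgeR adjusted p = 1.22e-09), a larger change in size than in 93.1% of tested genes. Leaving out any library gave −2.04 to −1.78.

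Egr1 encodes an early response zinc finger factor outside AP-1 that shares its SRF and MAP kinase inputs with Fos. Its level was 142.8, 106.4, 125.6 and 146.0 CPM in the controls and 177.2, 158.5, 171.1 and 156.2 CPM in YAP5SA. The groups did not overlap, and control 2 was again the lowest. Egr1 rose by 0.35 ± 0.08 SE on the log2 scale (edgeR adjusted p = 0.00283), and by 0.26 without control 2 (adjusted p = 0.003, edgeR).

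Ier3, also known as IEX-1, had 94.5, 80.2, 101.2 and 78.9 CPM in the controls and 76.1, 66.9, 69.97 and 68.3 CPM in YAP5SA. The highest YAP5SA library was just below the lowest control. It fell by 0.34 ± 0.08 SE on the log2 scale (edgeR adjusted p = 0.00144).

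Leaving aside Fosl1, which passed the filter through the controls alone, the groups did not overlap in 2 genes that were higher (Fos and Egr1) and 4 that were lower (Fosl2, Jun, Atf3 and Ier3) in YAP5SA, and 45.7% of all tested genes did not overlap (21.8% higher and 23.9% lower).

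**Figure D2:**
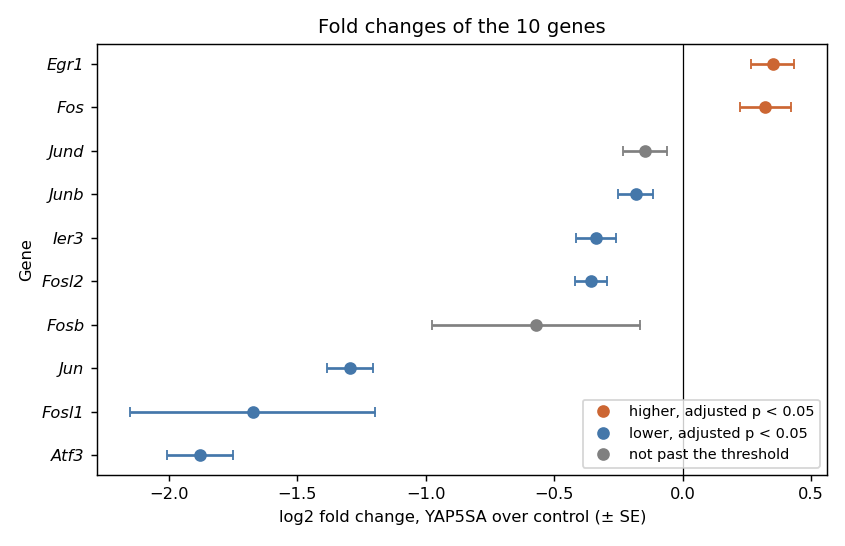
Log2 fold change of each of the 10 genes, YAP5SA over control, with bars of 1 standard error; orange marks genes that rose, blue genes that fell and grey genes past no threshold. Atf3 (−1.88), Fosl1 (−1.67) and Jun (−1.29) lie furthest from 0, and only Egr1 (0.35) and Fos (0.32) lie above 0. Fosl1 passed the filter on low counts through its control libraries alone.

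Levels of different genes were compared per length, as CPM per kb of the exons annotated in GENCODE M21. In control organoids Ier3 (78.4 ± 9.7 CPM per kb) and Jund (67.5 ± 5.7) were highest, with overlapping ranges. They were followed by Junb (37.6 ± 3.7) and Egr1 (29.0 ± 4.1), which also overlapped. Fosl2 (15.5 ± 1.2), Jun (15.0 ± 1.6) and Atf3 (13.3 ± 1.3) formed the next level, with overlapping neighbours, and Fos was below them at 7.60 ± 1.01 CPM per kb. Fosl1 (0.50 ± 0.23) and Fosb (0.21 ± 0.09) came last and overlapped.

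In YAP5SA organoids the top pair was the same, with Ier3 at 62.2 ± 3.6 and Jund at 60.9 ± 8.2 CPM per kb. Egr1 (37.0 ± 2.2) then stood above Junb (33.1 ± 1.5), and Fosl2 (12.1 ± 0.7) above Fos (9.48 ± 0.35). Jun (6.09 ± 0.60) and Atf3 (3.60 ± 0.81) were below Fos, the reverse of the control order. None of these neighbours overlapped between Jund and Fosl1 (0.15 ± 0.10 CPM per kb), which overlapped with Fosb (0.14 ± 0.06).

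The make-up of the FOS and JUN family RNA was described from the same per-length levels, with no test. Fosl2 was the main FOS RNA in both groups, at 65.2% ± 1.7 of the summed FOS level in control and 55.3% ± 1.7 in YAP5SA (SD, n = 4). The share of Fos was 29.7% to 34.5% in the controls and 40.8% to 44.6% in YAP5SA, without overlap. Fosl1 made up 2.08% ± 0.91 and 0.68% ± 0.41, and Fosb 0.86% ± 0.29 and 0.63% ± 0.30. These 4 genes summed to 23.8 ± 2.3 CPM per kb in control and 21.9 ± 0.8 in YAP5SA, with overlapping ranges.

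Jund was the main JUN RNA, with 56.2% ± 1.1 of the summed JUN level in control and 60.7% ± 2.2 in YAP5SA. Junb made up 31.3% ± 1.5 and 33.2% ± 1.9. The share of Jun was 11.7% to 12.9% in the controls and 5.29% to 6.83% in YAP5SA, without overlap. The JUN genes summed to 120.1 ± 10.0 CPM per kb in control and 100.1 ± 9.8 in YAP5SA, and control 2 lay within the YAP5SA range. The ratio of the JUN sum to the FOS sum was 5.04 ± 0.14 in control and 4.57 ± 0.34 in YAP5SA, where the lowest control (4.90) was just above the highest YAP5SA library (4.88).

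**Figure D3:**
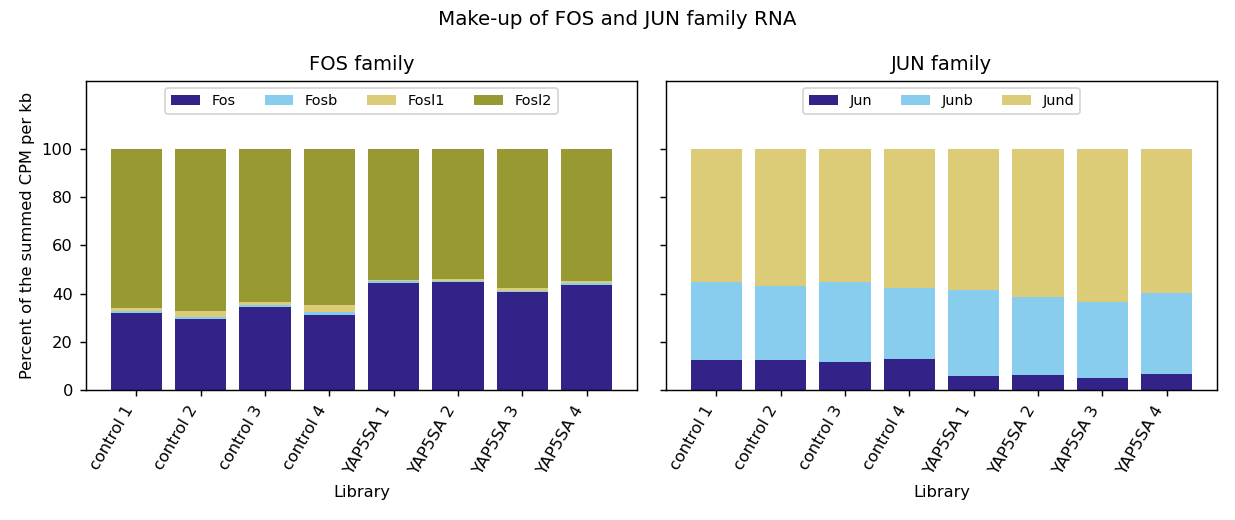
Share of each gene in the summed CPM per kb of the FOS genes (left) and the JUN genes (right), in percent, with a bar for each of the 8 libraries. The Fos part is taller in the YAP5SA bars (40.8% to 44.6%) than in the controls (29.7% to 34.5%), and the Jun part is shorter (5.29% to 6.83% against 11.7% to 12.9%).

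Variation among libraries of a group was measured as the SD of log2 CPM around the group mean. It was 0.10 for Fosl2, 0.11 for Junb, 0.14 for Ier3, 0.15 for Jun and Fos, 0.16 for Egr1 and Jund, 0.24 for Atf3, 0.60 for Fosl1 and 0.72 for Fosb. For all 10 genes this was above the median of tested genes of like level (within 0.5 on the log2 scale). For Egr1 it was above 94.7%, for Jund above 94.5%, for Fosb above 92.8% and for Atf3 above 92% of such genes. Control 2 had the lowest level of the controls in 8 of the 10 genes, the exceptions being Fosl1 and Ier3, and its median deviation over the 10 genes was −0.18 on the log2 scale beside 0.00 over all tested genes. Control 4 had the highest level in 6 genes. Among the YAP5SA libraries no library was highest or lowest in more than 4 genes. Without control 2, the same number of the 10 genes passed the test, 2 higher and 6 lower.

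**Figure D4:**
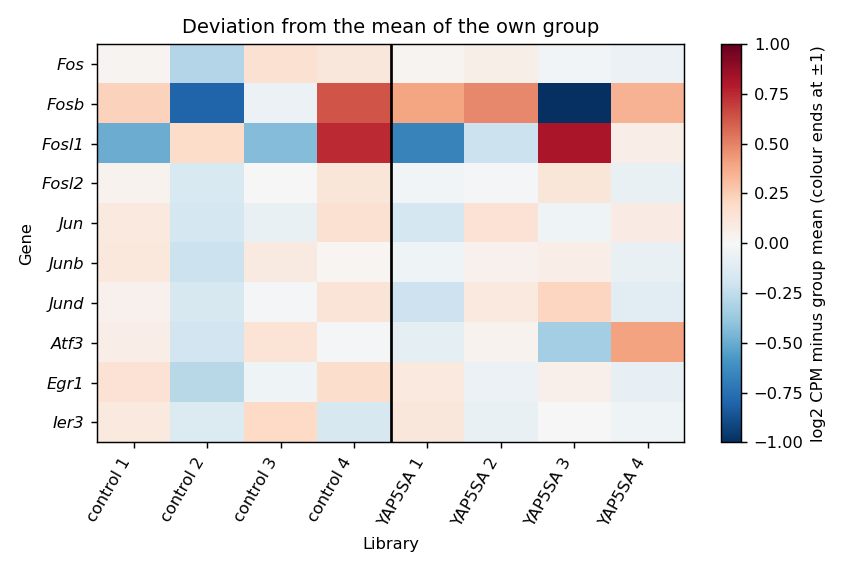
Deviation of log2 CPM from the mean of the own group, for each gene (rows) and library (columns), with red above and blue below the mean and a colour scale that ends at 1 in either direction. The control 2 column is below the mean in every gene except Fosl1, and the 2 least counted genes, Fosb and Fosl1, vary most.

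The genes with the most similar profile were those with the smallest root mean square difference of log2 CPM over the 8 libraries after the mean of each gene was taken off, among 9351 genes with a mean log2 CPM of at least 3. Fosl2 was nearest to Epb41, a membrane skeleton protein gene (difference 0.02 on the log2 scale), then Slc39a1 and Usp40 (both 0.04). Jun was nearest to Rora (0.07), Cpm (0.10) and Etv5 (0.10), of which the ETS factor gene Etv5 averaged 89.0 ± 7.6 CPM in control and 35.8 ± 3.3 in YAP5SA. Atf3 was nearest to Lzts3 (0.11), Tpd52l1 (0.16) and Birc3 (0.17), an inhibitor of apoptosis gene with 17.7 ± 2.3 and 5.83 ± 0.89 CPM. Rab3a and Wbp2 were close to Fos (both 0.07), and Egr1 was nearest to Dstyk (0.05), Llgl2 and Slc6a9 (both 0.06). For Junb they were Brpf3, Ilrun and Leprot, for Jund Gpr137b-ps, Pim1 and Rhob, and for Ier3 Naaa, Btd and Tbc1d32, with differences between 0.03 and 0.07. Fosl1 (Ces2g, Ptp4a3 and Zfp365) and Fosb (Lrrc8a, Car5b and Slc12a4) had no close neighbour, with differences of at least 0.39 and 0.45.

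Other bZIP proteins can take the place of these subunits. Of 15 such genes, 9 were tested, 2 rose, 3 fell and 4 did not pass. Thus 55.6% of those tested changed, near the 49.1% of all tested genes. Jdp2, a JUN dimerization partner that represses AP-1 sites, rose from 9.92 ± 1.75 to 26.0 ± 1.9 CPM (log2 fold change 1.40), and Atf7 rose by 0.40. Atf2, a partner of JUN at cyclic AMP response elements, fell by 0.34 on the log2 scale, Mafg by 0.39 and Creb5 by 0.67. Batf, Batf2 and Batf3 had at most 6 counts over a group. The median log2 fold change of the tested genes was −0.06.

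Of 46 other early response genes, 41 were tested, 11 rose, 15 fell and 15 did not pass, with a median log2 fold change of −0.10. The share that changed was 63.4%, beside 49.1% of all tested genes (23.6% rose and 25.5% fell). Among those that fell were Nr4a2, an orphan nuclear receptor gene, from 21.2 ± 4.2 to 5.80 ± 1.21 CPM, and Ccn2, a matricellular protein gene used as a YAP readout, by 1.05 on the log2 scale. Ccn1, of the same family and likewise used as a YAP readout, did not fall. It had 80.5 ± 5.7 CPM in control and 94.1 ± 20.6 in YAP5SA and did not pass (log2 fold change 0.23, edgeR adjusted p = 0.205). Klf4, a zinc finger factor of barrier epithelia, rose by 2.48 and Tiparp by 0.82. The other 9 that rose were Sgk1 (1.44), Sik1 (1.18), Arc (1.06), Klf10 (0.71), Per1 (0.70), Id1 (0.61), Csrnp1 (0.53), Cebpb (0.48) and Ier5 (0.46). Egr3, a paralogue of Egr1 named here after its values were seen, fell from 1.44 ± 0.17 to 0.29 ± 0.21 CPM, with 96 counts in control and 19 in YAP5SA. Only its control libraries carried Egr3 past the filter on low counts, so it had to differ once it was tested.

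Srf, which drives early response genes through the CArG box, had 26.3 ± 4.5 CPM in control and 26.7 ± 0.7 in YAP5SA and did not pass (log2 fold change 0.02). Of the 6 genes of SRF and its cofactors, Mrtfa rose by 0.57, and Elk3 and Mrtfb fell by 0.53 and 0.46 on the log2 scale. The list median was −0.01, and 50% of the list changed, near the 49.1% of all tested genes. Of 24 MAP kinase pathway genes, 23 were tested, 8 rose, 4 fell and 11 did not pass (median log2 fold change 0.02). Here too the share that changed, 52.2%, was near that of all tested genes. Map3k1, a kinase upstream of JNK, rose from 44.4 ± 4.2 to 84.8 ± 4.0 CPM, and Map3k5, which encodes the stress kinase ASK1, fell from 60.2 ± 4.9 to 29.1 ± 0.4 CPM. Rps6ka5, a kinase that acts on chromatin at early response genes, rose by 0.72, and Rps6ka1 fell by 0.42 on the log2 scale. Map2k4 and Map3k7 fell by 0.24 and 0.14 on that scale, and the JNK gene Mapk8 did not pass (61.9 ± 0.8 and 61.3 ± 4.6 CPM). Of the other JNK genes, Mapk9 rose by 0.19 on the log2 scale, from 76.7 ± 1.5 to 87.2 ± 3.6 CPM (edgeR adjusted p = 0.00826). Mapk10 had 2 counts in each group and was not tested.

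Among 30 genes known from other systems as AP-1 targets, 23 were tested, 6 rose, 14 fell and 3 did not pass, with a median log2 fold change of −0.40. The share that changed was 87.0%, beside 49.1% of all tested genes (23.6% rose and 25.5% fell). Spp1, the osteopontin gene, fell (log2 fold change −6.12), and so did the cornified envelope genes Sprr1a (−4.55) and Ivl (−3.36). Mmp14, a membrane-bound metalloproteinase gene, rose by 4.75, Plau by 1.42, Vegfa by 1.34, Ereg by 0.61, Vim by 0.53 and Cd44 by 0.20. The collagenase and stromelysin genes Mmp1a and Mmp3 had 0 counts in all libraries. Many of these genes also respond to other factors, and Spp1 and Sprr1a were already known to differ between these groups when the list was made.

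**Figure D5:**
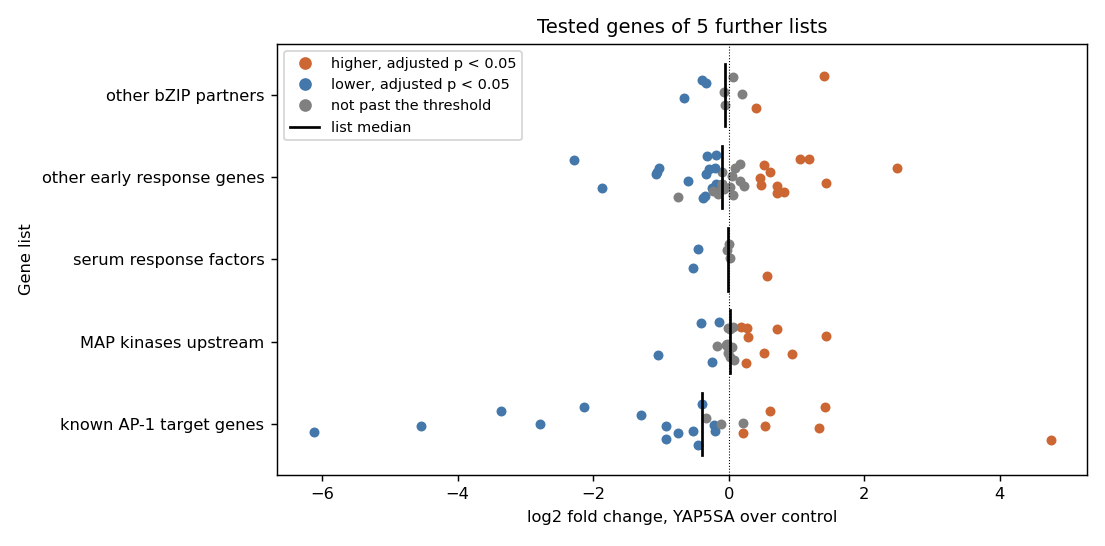
Log2 fold change, YAP5SA over control, of each tested gene in 5 further lists, with orange for genes that rose, blue for genes that fell, grey for genes past no threshold and a black line at the list median; the vertical scatter within a list has no meaning. The known AP-1 targets reach from −6.12 (Spp1) to 4.75 (Mmp14), while the serum response factors stay between −0.53 (Elk3) and 0.57 (Mrtfa).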

How the data were processed

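The authors deposited raw counts of reads per gene, as whole numbers, for 8 libraries sequenced at 150 bp from both ends (labels' protocols). The submitters' processing notes name cutadapt, HISAT2 2.0.1, HTSeq 0.6.1 and build mm9. The annotation release and strand setting were not given in the sources used here. The 2639 rows without a gene name (0.19% to 0.221% of a library) were left out, and rows sharing a symbol were summed. Counts were filtered with filterByExpr (minimum count 10, minimum total 15), which left 14058 genes, scaled by TMM and tested in R 4.3.3 by the quasi-likelihood test of edgeR 4.0.16 (glmQLFit, robust; glmQLFTest) on genotype alone. Benjamini-Hochberg adjustment covered all tested genes, and calls were made under 0.05. The common biological coefficient of variation was 7.97%. Fold changes are YAP5SA over control, and each standard error is its log2 value over the root of F. CPM use the TMM-scaled library sizes. Log2 CPM use a prior count of 2. Exon lengths and overlaps come from GENCODE M21, by symbol. The build of the counts is older, so lengths are approximate. The test was tested on simulated data. Few genes were changed in that simulation, so it does not show how the scaling and the test do where as many genes change as here. DESeq2 1.42.0, other scalings, no filter, a replicate block and leaving out each library were alternatives.

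The members and lists were chosen with earlier results of these data known. The genes named are the 10 members, the 3 genes nearest in profile to each, up to 4 called genes with the smallest adjusted p of each wider list together with called genes against the main direction of the list, and, for each other cell type, its most abundant marker. Other genes named as examples (Creb5, Batf, Batf2, Batf3, Srf, Mapk8, Mapk9, Mapk10, Ccn1, Egr3, Mmp1a, Mmp3 and further markers) were chosen after their values were seen. A gene given by this rule is not reported here.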

Additional observations from a re-analysis of the deposited data

Results flagged for a closer look

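The Fosb level of YAP5SA 3, 0.26 CPM from 4 counts, stood apart from the other YAP5SA libraries (1.001 to 1.10 CPM). The share of Fosb in the summed FOS level, 0.18% in YAP5SA 3 and 0.76% to 0.80% in the other YAP5SA libraries, rests on the same counts. Among 34 groups of 4 values examined for such gaps (10 levels and 7 shares in each genotype), these were the 2 found. By chance alone about 1 in 20 such groups would show a gap of this size, so a few are no surprise. Without YAP5SA 3 the log2 fold change of Fosb was −0.29 (adjusted p = 0.565, edgeR quasi-likelihood), and it did not pass with all libraries either.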

How the results depend on the processing

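All 10 genes kept their direction under all 13 alternatives, and 8 of them their side of the threshold. The exceptions were Junb, which no longer passed under 6 of them (adjusted p up to 0.0958, edgeR quasi-likelihood), and Jund, which passed without YAP5SA 3. Over the alternatives the log2 fold change lay between −2.04 and −1.78 for Atf3, −1.35 and −1.24 for Jun, −2.15 and −1.37 for Fosl1, 0.22 and 0.37 for Fos, and 0.26 and 0.41 for Egr1. Leaving out each library gave 2 genes higher throughout and 5 to 7 lower, and between 6371 and 7317 genes changed in all (6899 with all libraries). Same-numbered libraries of the groups correlated at −0.08 to 0.09 in their deviations. Controls 3 and 4 matched best to the YAP5SA library of their own number, and controls 1 and 2 to one of another number. Such weak correlations cannot decide whether the numbers pair the libraries. A replicate block left 2 genes higher and 5 lower, and 6586 genes changed. With library size as the only scaling, 3635 genes rose and 3282 fell in all, against 3315 and 3584 with TMM, and 2 and 5 of the 10 genes. With no filter 7611 genes changed, and DESeq2 called 6858. With CPM not divided by length, the FOS shares in control and YAP5SA were 10.5% and 15.9% for Fos, 0.59% and 0.21% for Fosl1, and 88.2% and 83.3% for Fosl2, and the JUN shares 19.4% and 9.88% for Jun, 35.0% and 38.7% for Junb, and 45.6% and 51.4% for Jund, since the exon lengths differ. Depth limits Fosb and Fosl1, with 84 and 65 counts over the controls. The call of Fosl1, though kept under all alternatives, is for a gene that its controls alone carried past the filter.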
